A study of Mus musculus with 5 samples.

Results

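The genes described here encode core splicing factors and the RNA-binding proteins that coat nascent transcripts. They were chosen by symbol alone: the SR proteins (Srsf), the heterogeneous nuclear ribonucleoproteins (Hnrnp), the SF3a and SF3b subunits (Sf3a, Sf3b), and the Sm and other proteins of small nuclear ribonucleoproteins (Snrp, with Snrpn left out). These symbols matched 46 of 18193 genes on the array, namely 10 SR, 19 hnRNP, 9 SF3 and 8 Snrp genes, covered by 138 of 45037 probe sets. Where several probe sets named a gene, the brightest one on average stood for it. RNA came from E14 mouse embryonic stem cells grown on a feeder layer of mouse embryo fibroblasts with serum replacement, a little fetal bovine serum and leukaemia inhibitory factor. There were 5 arrays, 2 from wild-type cells (WT) and 3 from cells with both Trip12 alleles mutated (Trip12 mut/mut, called mutants 1 to 3 after their replicate numbers), and Trip12 encodes a HECT-type ubiquitin ligase. The nature of the mutation, the number of mutant clones, and whether feeder cells were taken off before RNA extraction were not given. The labels call the samples biological replicates without saying whether they are separate cultures, so p-values measure the spread between these samples, which may be technical. All values are log2 values as the authors deposited them, made with RMA, which corrects background, normalises between arrays and combines the probes of a probe set. Differences are mutant minus WT, so that -1 is a 2-fold lower signal. In bulk RNA, fewer cells of a type and less RNA per cell cannot be told apart.

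Splicing removes introns in a stepwise assembly of small nuclear ribonucleoproteins. Most of these particles are built on a ring of Sm proteins around a small nuclear RNA, while U6 carries a ring of LSM proteins. U1 marks the start of the intron, and U2, which carries SF3a and SF3b, marks the branch site. SR proteins bind exons and mostly help the machinery to use them, whereas hnRNP proteins bind intron and exon sequences and often act against the use of a site. Many SR and hnRNP genes control their own transcripts through alternative exons that send the RNA to decay, so a gene can make several transcript forms that separate probe sets report on differently. Stem cells divide fast and express these genes at high levels.

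In the splicing genes the sample labelled mutant 1 stood no farther from WT than the WT samples from each other, and main results are therefore given with and without it. Whether its label is right cannot be told from these files, so every difference over all 5 arrays depends on that label. Over the 138 probe sets of the splicing genes, the SD of the difference between the WT arrays was 0.080. It was 0.063 and 0.060 between that sample and WT replicates 1 and 2, against 0.31 and 0.33 for mutant 2, and 0.21 and 0.19 for mutant 3. Identical values stood in that sample and WT replicate 2 for 32 of the 138 probe sets, and on both WT arrays for 17. The brightest Trip12 probe set read 10.17 and 10.25 in WT, 10.18 in the sample labelled mutant 1, and 12.09 and 12.57 in mutants 2 and 3 (difference of mutants 2 and 3 from WT 2.12, limma adjusted p = 0.042). The 16 stem cell markers, all measured, averaged 10.88 and 10.89 in WT, 10.88 in the sample labelled mutant 1, and 10.73 and 10.86 in mutants 2 and 3. Their differences without the sample labelled mutant 1 went both ways, from -0.97 to 0.57, with Utf1 and Lin28a falling and Tcl1 rising. In mutants 2 and 3, 7 of the 16, or 43.8%, lay below both WT arrays, beside 22.1% of all tested genes. Above both lay 4, or 25%, beside 35.2%. The 28 measured of 29 fibroblast markers averaged 10.25 and 10.26 in WT and 10.22 in the sample labelled mutant 1, and 10.74 and 10.73 in mutants 2 and 3. On the unlogged scale their summed signal was 62712 and 63641 in WT, 62170 in the sample labelled mutant 1, and 92959 and 90255 in mutants 2 and 3. Of these markers 8 rose and 0 fell in the comparison without the sample labelled mutant 1, where 3.29% of all tested genes rose and 1.34% fell. In mutants 2 and 3, 21 of the 28 lay above both WT arrays, beside 35.2% of all tested genes. RMA leaves no marker at 0, and the dimmest fibroblast marker, Fap, lay between 5.29 and 5.46. The part of these markers in the splicing gene values was not tested.

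Most of the 46 splicing genes lay slightly below WT in mutant 3, mutant 2 lay to either side of WT, and 1 gene passed a test in 1 of the comparisons. Over all 5 arrays the median difference of the 46 genes was -0.11, against 0.02 over all 18193 genes. Without mutant 3 it was -0.03, against 0.03 over all genes. None of the 46 passed over these arrays (limma with genotype as the only term, adjusted p of at least 0.748), as was true of all genes, of which 0% were called. At an unadjusted p below 0.05 there were 0 of the 46, where 1.18% of all genes stood. Every array labelled mutant lay below both WT arrays for 3 of the 46, Sf3a1, Snrpb and Srsf3, which is 6.52%, and above both for 0. Among all genes the corresponding shares were 6.29% and 5.73%, or 7.91% and 6.27% once dim probe sets were removed, so the count over 5 arrays did not stand out from the background.

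Without the sample labelled mutant 1, and with dim probe sets removed, 45 of the 46 genes were tested. The excluded gene was Srsf12, which lay between 4.42 and 4.45 on all arrays. In that comparison 4.64% of 11626 genes were called, 1.34% as lower and 3.29% as higher. Of the 45 splicing genes 1 fell, Hnrnpa2b1, and 0 rose. That sample was left out because of its values, which makes these p-values too favourable. The median difference of the tested splicing genes was -0.14, against 0.05 over all genes tested. With mutant 3 left out as well it was -0.05, against 0.06. Mutants 2 and 3 lay below both WT arrays for 21 of the 46 genes, or 45.7%, where 22.1% of all tested genes and 29.1% of the 2347 genes with a mean of 10 or more did. They lay above both WT arrays for 2, Hnrnpul2 and Sf3b1, or 4.35%, where 35.2% of all tested genes did. A difference of -0.5 or less stood for 4 of the 46, Hnrnpa2b1, Hnrnpa1, Snrpb and Snrpe, beside 4.57% of all tested genes, and one of 0.5 or more for 0, beside 8.7%. An unadjusted p below 0.05 stood for 9 lower and 1 higher of the 45, beside 8.98% and 19.8% of all genes tested.

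The mutant arrays with a higher Trip12 signal were not alike in these genes. Mutant 3 lay below both WT arrays for 40 of the 46 genes, or 87.0%, beside 37.4% of all tested genes and 48.9% of those with a mean of 10 or more. Mutant 2 lay below both for 24, or 52.2%, beside 34% and 39.5%, and above both for 18, or 39.1%, beside 53.4% of all tested genes. The median of the 46 genes relative to the WT mean was -0.20 in mutant 3 and -0.04 in mutant 2, and -0.01 in the sample labelled mutant 1. Over all tested genes these medians were 0.01, 0.06 and -0.01, and over genes with a mean of 10 or more they were -0.01, 0.04 and -0.01. Mutant 3 thus lay slightly below WT in most of the 46 genes, and mutant 2 lay further below in a few and above in others.

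**Figure D1:**
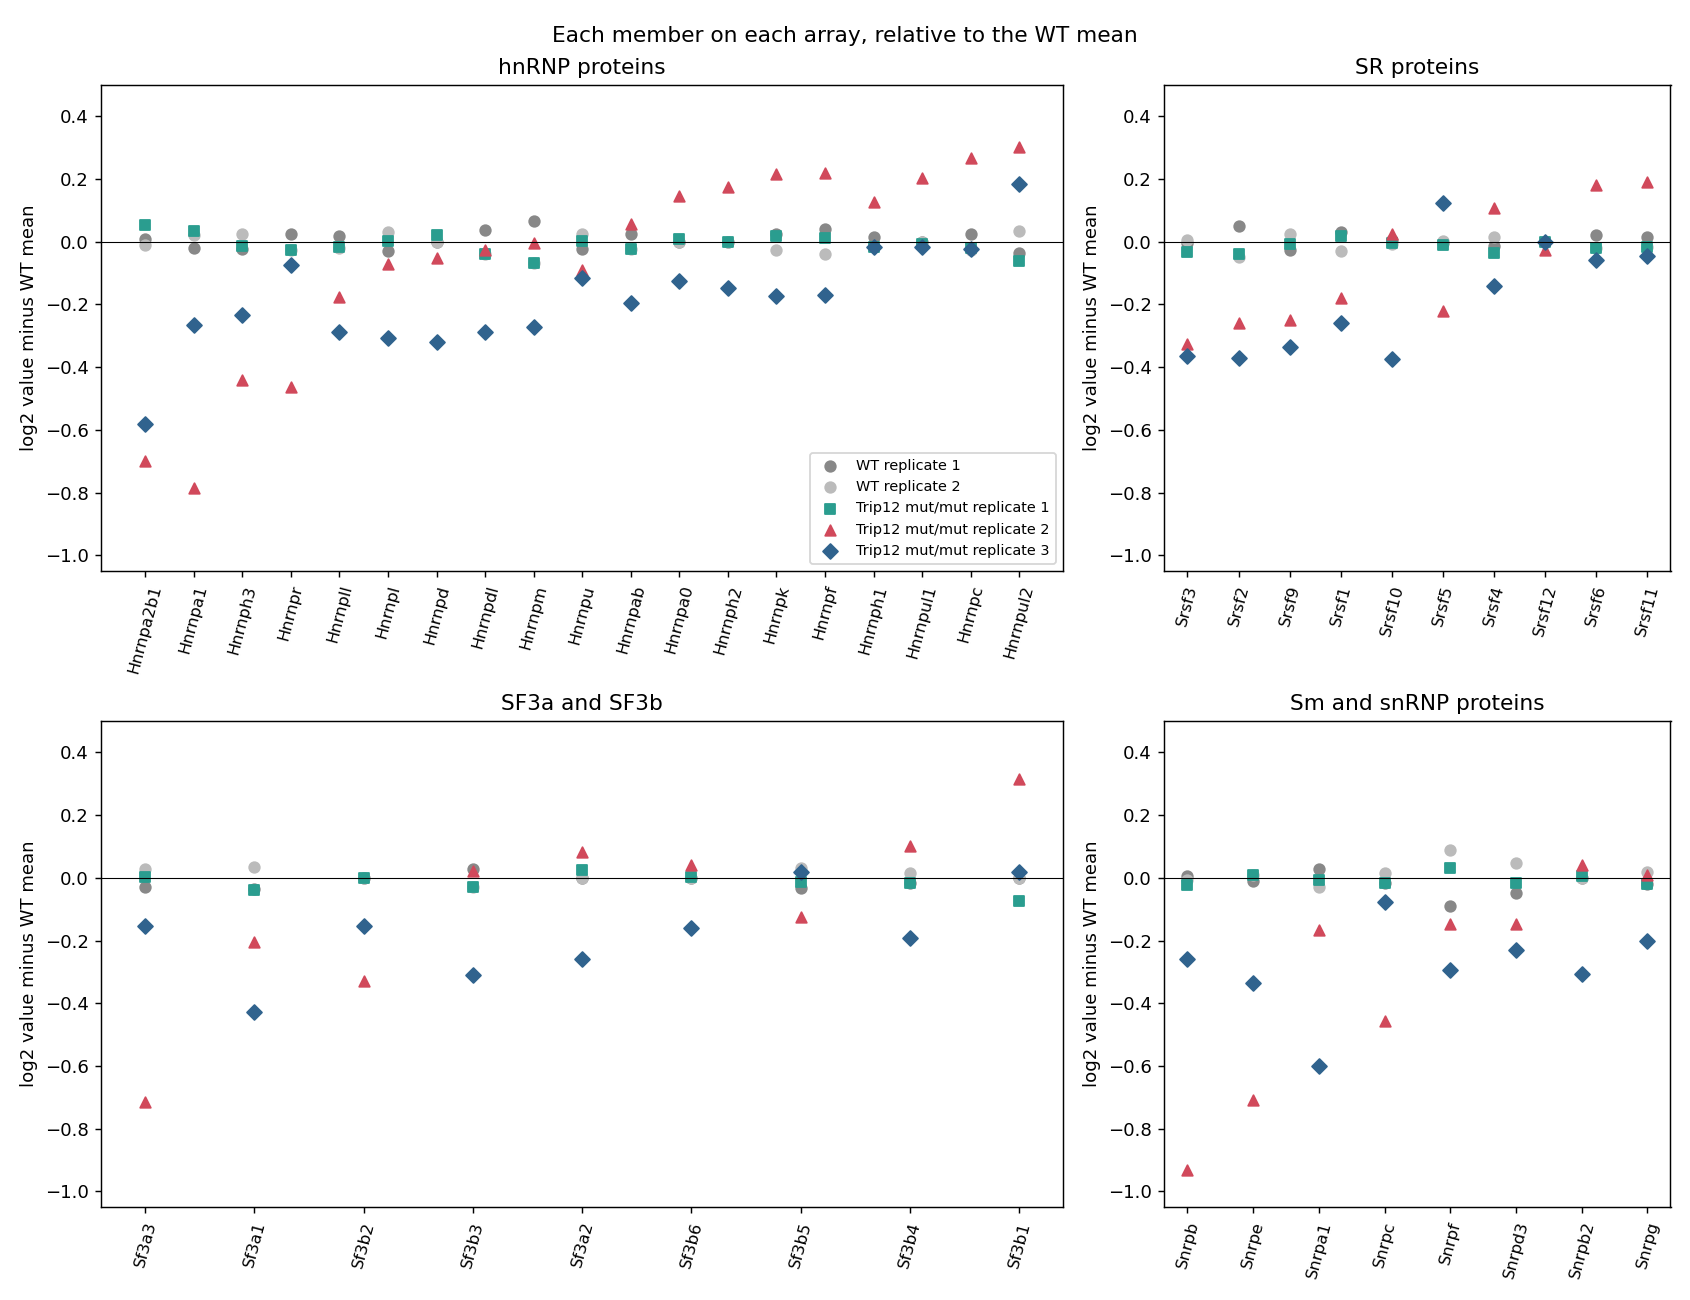
Each of the 46 splicing genes on each of the 5 arrays, as the log2 value minus the mean of the 2 WT arrays, in 4 panels by family and ordered by the mean of mutant replicates 2 and 3. Grey points are WT, squares the array labelled Trip12 mut/mut replicate 1, triangles replicate 2 and diamonds replicate 3. The squares lie near the WT points, below both WT arrays for 8 genes and above both for 7. The diamonds lie below both WT arrays for 40 genes, and the triangles spread to either side.

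**Figure D2:**
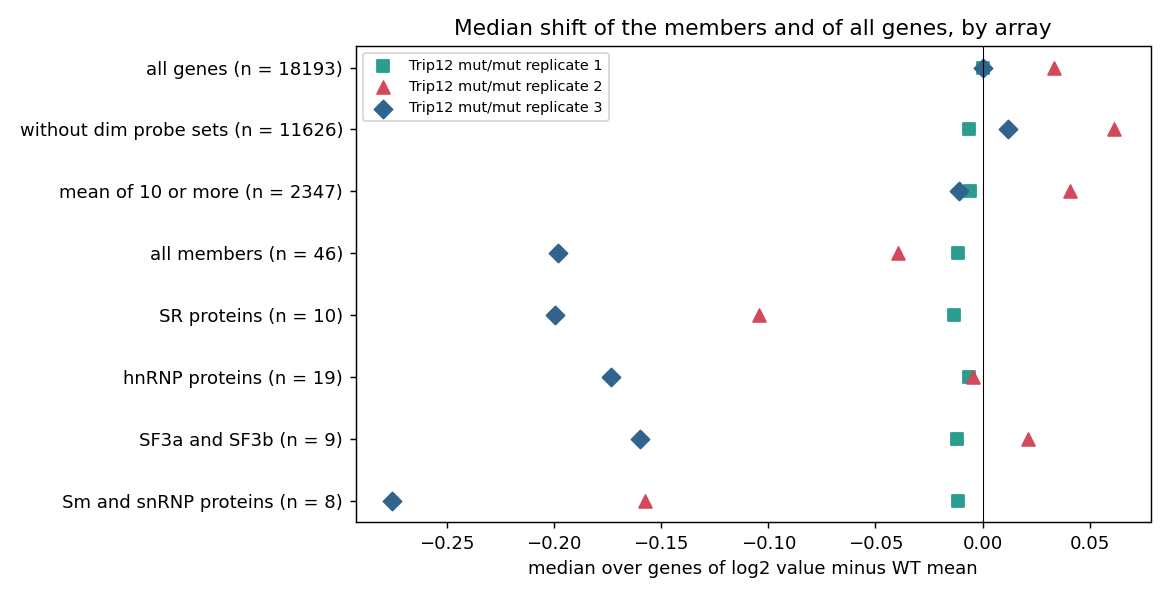
Median over genes of the log2 value minus the WT mean, for each Trip12 mut/mut array, over all genes, genes left after dim probe sets were removed, genes with a mean of 10 or more, and the splicing genes by family. The replicate 3 median is -0.20 over all 46 members and -0.28 over the Sm and snRNP genes, while all genes lie near 0 on that array.

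Of the 10 SR genes 4, or 40.0%, lay below both WT arrays in mutants 2 and 3, beside 22.1% of all tested genes and 29.1% of those with a mean of 10 or more, and none passed. Srsf3, which encodes the smallest SR protein and regulates its own transcript, read 12.42 and 12.43 in WT, 12.40 in the sample labelled mutant 1, and 12.10 and 12.06 in mutants 2 and 3. All 3 arrays labelled mutant lay below both WT arrays, the first by little. Without the sample labelled mutant 1 the difference was -0.35 with an SE of 0.07, a 1.27-fold lower signal (limma, adjusted p = 0.066). Srsf2, whose protein acts in exon definition and transcription elongation, read 12.41 and 12.32 in WT, 12.33 in the sample labelled mutant 1, and 12.11 and 11.99 in mutants 2 and 3 (difference without it -0.31, limma adjusted p = 0.108). Srsf9 read 11.45 and 11.50 in WT, 11.46, and then 11.22 and 11.13 (difference -0.29, limma adjusted p = 0.098). Srsf1, the founding SR protein, also an oncoprotein, read 12.41 and 12.35 in WT, 12.40 in the sample labelled mutant 1, and 12.20 and 12.12 in mutants 2 and 3 (difference -0.22, limma adjusted p = 0.157). On the probe sets given for these 4 genes mutants 2 and 3 lay close together. On some others they did not. Relative to the WT mean, another probe set of Srsf2 stood at -0.59 and -0.15 in mutants 2 and 3, and one of Srsf1 at -0.002 and -0.32.

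Srsf10, a regulator of splicing under stress, was split between the mutant arrays, at 10.82 in mutant 2 and 10.43 in mutant 3 beside 10.80 and 10.79 in WT. Srsf5 went the other way, with 12.57 in mutant 2 and 12.92 in mutant 3 beside 12.79 and 12.80 in WT. Srsf6 and Srsf11 had small positive differences of 0.06 and 0.07, both from mutant 2 alone, since in mutant 3 they lay below WT. Srsf4 differed by -0.02. The direction of Srsf6 turned with the probe set used, as described for the probe sets of each gene.

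Without the sample labelled mutant 1, and on the brightest probe sets, Hnrnpa2b1 was the only splicing gene of the 46 called as lower. It encodes the hnRNP A2 and B1 proteins, which bind RNA in splicing, in transport and as readers of modified RNA. It read 12.54 and 12.52 in WT, 12.59 in the sample labelled mutant 1, and 11.83 and 11.95 in mutants 2 and 3. The other probe sets of Hnrnpa2b1 differed by -0.06, -0.02 and 0.05. With the probe sets of each gene averaged, Snrpa1 and Srsf3 were called as lower instead. On the probe set given for Hnrnpa2b1, mutants 2 and 3 lay clearly below WT, and the sample labelled mutant 1 above it. Without the latter the difference was -0.64 with an SE of 0.08, a 1.56-fold lower signal (limma, adjusted p = 0.045), and over all 5 arrays it was -0.41 with an SE of 0.25 (limma, adjusted p = 0.748). The call was lost when dim probe sets were kept (limma, adjusted p = 0.078, with 0 of 18193 genes called), when either WT array was left out (0.590 and 0.594), and when the probe sets of each gene were averaged (0.193, difference -0.17).

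The other hnRNP genes spread on both sides of WT. Hnrnpa1, the best studied antagonist of SR proteins, read 11.46 and 11.50 in WT, 11.51 in the sample labelled mutant 1, and 10.69 and 11.21 in mutants 2 and 3 (difference without it -0.53, limma adjusted p = 0.186). Its probe set may also bind transcripts of related sequences, given its ending _x_at. Hnrnph3 read 9.84 and 9.89 in WT, 9.85, and then 9.43 and 9.63 (difference -0.34, limma adjusted p = 0.128). Hnrnpr, which is also found in neuronal RNA transport, read 10.80 and 10.74 in WT, 10.74, and then 10.31 and 10.69 (difference -0.27, limma adjusted p = 0.338). On the probe sets given for Hnrnpa1 and Hnrnpr mutant 2 carried most of the difference. Relative to the WT mean, another probe set of Hnrnpa1 stood at -0.65 and -0.17 in mutants 2 and 3, and a further one at -0.08 and -0.37. The other tested probe sets of Hnrnpr stood at 0.44 and -0.51, 0.06 and 0.35, and 0.0007 and -0.12.

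On their brightest probe sets, several further hnRNP genes were low in mutant 3 more than in mutant 2. Hnrnpl, a factor that binds CA repeats, read 10.64 in mutant 2 and 10.40 in mutant 3 beside 10.68 and 10.74 in WT. Its relative Hnrnpll, known for alternative splicing of the CD45 gene in lymphocytes, read 10.53 and 10.42 beside 10.72 and 10.68 (difference -0.23, limma adjusted p = 0.156). Hnrnpd, also called AUF1, a factor in the decay of AU-rich transcripts, read 11.93 and 11.66 beside 11.98 on both WT arrays. Relative to the WT mean, the other tested probe set of Hnrnpd stood at -0.56 and -0.45 in mutants 2 and 3. That of Hnrnpll stood at 0.17 and -0.23. Of the 19 hnRNP genes 8, or 42.1%, lay below both WT arrays in mutants 2 and 3, beside 22.1% of all tested genes and 29.1% of those with a mean of 10 or more. Above both lay 1, or 5.26%, beside 35.2% and 31.9%.

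That 1 gene was Hnrnpul2, with 9.94 and 10.004 in WT, 9.91 in the sample labelled mutant 1, and 10.27 and 10.15 in mutants 2 and 3 (difference without it 0.24, SE 0.08, limma adjusted p = 0.157). Hnrnpc, whose protein sorts transcripts by length and masks cryptic sites in antisense Alu elements in human cells, had a difference of 0.12, Hnrnpul1 of 0.09 and Hnrnph1 of 0.06. These 3 were above WT in mutant 2 and within 0.03 of the WT mean in mutant 3. Hnrnpa0, Hnrnph2, Hnrnpk and Hnrnpf had differences between 0.01 and 0.02, which hid values above WT in mutant 2 and below it in mutant 3. Hnrnpk, for example, read 12.88 and 12.49 beside 12.69 and 12.64 in WT. These values are of the brightest probe set of each gene. Of the 4 tested probe sets of Hnrnpk, 2 had mutants 2 and 3 below both WT arrays, as had 2 of the 4 of Hnrnpf.

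SF3a and SF3b make up the part of U2 that holds the branch site, and the 3 SF3a genes were not equally low. Sf3a3 read 10.68 and 10.74 in WT, 10.71 in the sample labelled mutant 1, and 9.99 and 10.56 in mutants 2 and 3 (difference without it -0.43, SE 0.21, limma adjusted p = 0.276). Sf3a1 read 9.72 and 9.79 in WT, 9.71, and then 9.55 and 9.32 (difference -0.32, SE 0.11, limma adjusted p = 0.157). Sf3a2 read 11.43 on both WT arrays, and 11.51 and 11.17 in mutants 2 and 3, to either side of WT. Sf3a1 and Sf3a3 thus lay below WT on both mutant arrays. On these probe sets mutant 2 was lower in Sf3a3 and mutant 3 lower in Sf3a1. The other tested probe set of Sf3a1 had mutant 2 lower, at -0.30 and -0.21 relative to the WT mean in mutants 2 and 3.

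Among the SF3b genes, Sf3b2 read 10.63 on both WT arrays and in the sample labelled mutant 1, and 10.30 and 10.48 in mutants 2 and 3 (difference -0.24, limma adjusted p = 0.188). Sf3b1, the largest subunit and often mutated in human myelodysplasia, had the opposite sign, with 11.65 on both WT arrays, 11.57 in the sample labelled mutant 1, and 11.96 and 11.67 in mutants 2 and 3 (difference 0.17, limma adjusted p = 0.443). The excess over WT lay in mutant 2. On the other tested probe sets of Sf3b1 the differences were 0.02, 0.008 and -0.12, so the value of 0.17 held for its brightest probe set only. Sf3b3 had a difference of -0.14, and read 10.94 in mutant 2, at the WT level, and 10.61 in mutant 3. Sf3b4, Sf3b5 and Sf3b6 differed by -0.04, -0.05 and -0.06. The other tested probe sets of Sf3b6 were at -0.39 and -0.10, that of Sf3b5 was at 0.10, and that of Sf3b4 at -0.10.

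The Sm and snRNP genes had the lowest median of the 4 families, -0.24 without the sample labelled mutant 1, beside -0.11 for SR genes (-0.17 over the 9 that were tested, without Srsf12), -0.10 for hnRNP and -0.09 for SF3 genes. Whether the families differ was not tested. All 8 had a negative difference, as had 42.3% of all tested genes, and 0 passed. Mutants 2 and 3 lay below both WT arrays for 6 of the 8, beside 22.1% of all tested genes and 29.1% of those with a mean of 10 or more. Snrpb, which encodes the Sm proteins B and B′, read 12.41 and 12.40 in WT, 12.38 in the sample labelled mutant 1, and 11.47 and 12.14 in mutants 2 and 3. The difference was -0.59 with an SE of 0.25, or 1.51-fold (limma, adjusted p = 0.221), and mutant 2 was lower by far. Snrpe, another protein of the Sm ring, read 13.15 and 13.17 in WT, 13.17, and then 12.45 and 12.82 (difference -0.52, SE 0.15, limma adjusted p = 0.119).

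Of the proteins particular to U2 and U1, Snrpa1, the U2 A′ protein, read 11.33 and 11.27 in WT, 11.30 in the sample labelled mutant 1, and 11.14 and 10.70 in mutants 2 and 3 (difference -0.38, limma adjusted p = 0.239). Snrpb2, the U2 B″ protein, which binds RNA together with U2 A′, read 11.62 on both WT arrays and 11.66 and 11.32 in mutants 2 and 3. Snrpc, the U1 C protein that helps U1 bind the start of the intron, read 11.14 and 11.17 in WT, 11.14, and then 10.70 and 11.07 (difference -0.27, limma adjusted p = 0.332). The remaining ring proteins Snrpf, Snrpd3 and Snrpg differed by -0.22, -0.19 and -0.10. In each of the 3, mutant 3 lay below both WT arrays, and Snrpg was at the WT level in mutant 2 on its brightest probe set. On its other probe set Snrpg read 12.48 and 12.56 in WT, and 12.15 and 12.37 in mutants 2 and 3 (difference -0.26).

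Probe sets that the annotation gives several symbols, such as Hnrnpa3 with Gm6793, named no member, and so Hnrnpa3, Snrpa, Snrpd1 and Snrpd2 are not among the 46. All 10 such probe sets had a negative difference without the sample labelled mutant 1. The 4 with Hnrnpa3 lay between -0.50 and -0.14, the 3 further ones with Hnrnpa1 between -0.65 and -0.37, and those with Snrpd1, Snrpa and Snrpd2 at -0.50, -0.09 and -0.07. These signals may come from any of the listed genes.

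Separate probe sets of a gene often gave different values. Of the 138 probe sets 122 were bright enough to test, and 0 passed on their own (limma over 22734 probe sets, of which 0.066% were called, smallest adjusted p of the 122 0.060). Mutants 2 and 3 lay below both WT arrays for 65 of the 122, or 53.3%, beside 23% of all probe sets tested, and above both for 4, beside 31%. Among the 33 genes with more than 1 tested probe set, the sign of the difference was shared by all of them in 20 genes as negative and in 2 as positive, and differed in 11. In 5 of the 33, Hnrnpd, Sf3a1, Sf3a3, Snrpa1 and Snrpb, every tested probe set had both mutant arrays below both WT arrays. Snrpa1 was lower still on its other probe sets, with differences of -0.73 and -0.69, or 1.66-fold and 1.61-fold. Its endings _x_at and _s_at mark probe sets that may also bind other transcripts. The second probe set of Snrpb was at -0.48.

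In 6 genes the probe sets lay at least 0.5 apart, namely Hnrnpa2b1, Hnrnpc, Hnrnpu, Srsf3, Srsf6 and Srsf10, which were picked out after their values were seen. The 3 other probe sets of Hnrnpa2b1 had differences of -0.06, -0.02 and 0.05, beside -0.64 for the one that represented the gene. Its fall was therefore seen with 1 of 4 probe sets, whose own adjusted p over all probe sets was 0.061. Srsf3 ranged from -0.82 to -0.07, and all 6 of its probe sets were negative. The probe set at -0.82 read 10.86 and 10.81 in WT, 10.79 in the sample labelled mutant 1, and 9.77 and 10.25 in mutants 2 and 3 (limma, adjusted p = 0.105). Srsf6 ranged from -0.53 to 0.06 and only the probe set with the highest mean was positive, so the sign given for the gene holds for 1 of 4. Hnrnpc stood at 0.12 with its brightest probe set and at -0.58 with the next, which read 9.65 and 9.62 in WT, 9.60 in the sample labelled mutant 1, and 8.79 and 9.32 in mutants 2 and 3. Srsf10 ranged from -0.57 to -0.04, and its lowest probe set read 8.58 in mutant 2 and 9.39 in mutant 3, beside 9.53 and 9.59 in WT. In Hnrnpu the range was from -0.48 to 0.09. Which transcript form each probe set reports was not given.

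Mutant 2 was at least 0.5 below the WT mean at 19 of the 122 tested probe sets, beside 8.6% of all probe sets tested, and mutant 3 at 11, beside 3.91%. Both were at 3, beside 2.17%, namely 1 each of Hnrnpa2b1, Snrpa1 and Srsf3. None of the 122 was 0.5 or more above the WT mean in mutant 2 or mutant 3, where 10.2% and 6.8% of all probe sets tested were. In the sample labelled mutant 1 the 122 lay between -0.10 and 0.14 of the WT mean.

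**Figure D3:**
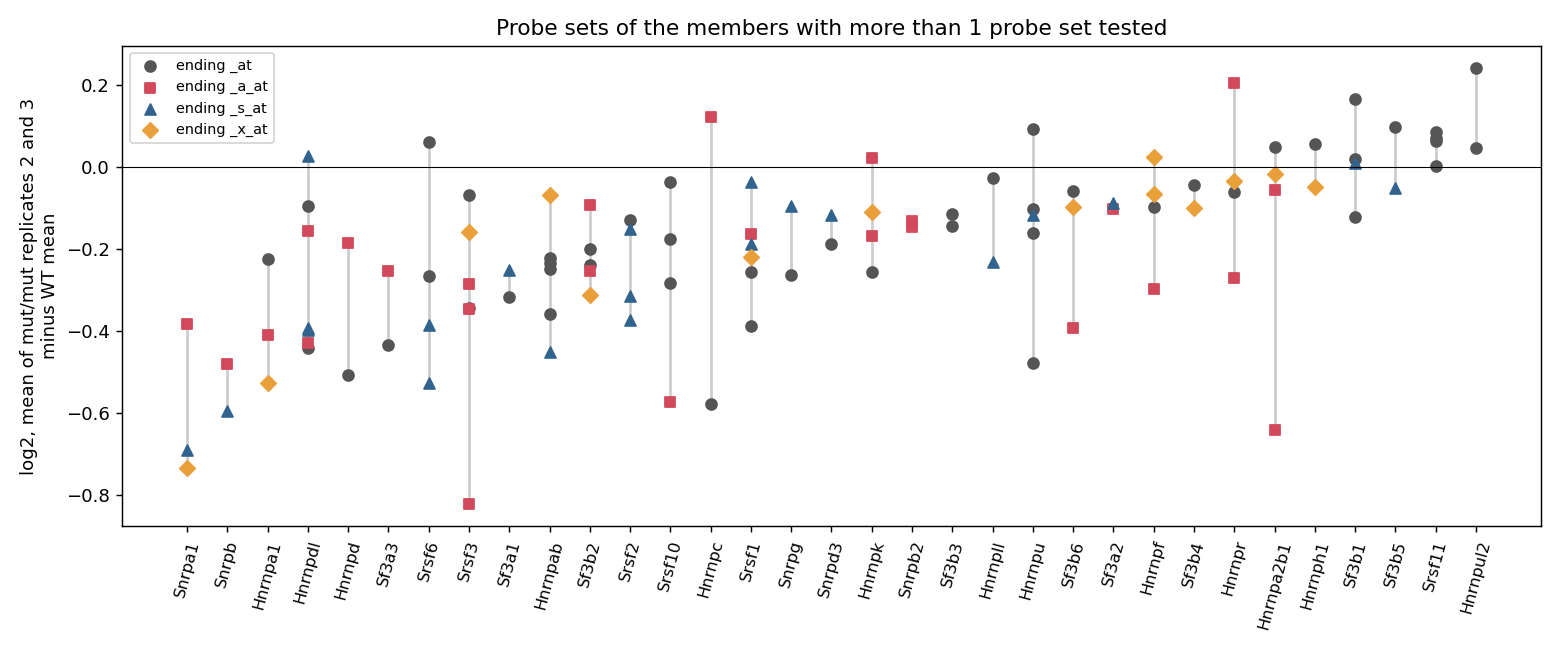
Each tested probe set of the 33 splicing genes with more than 1, as the log2 mean of Trip12 mut/mut replicates 2 and 3 minus the WT mean, with a grey line from the lowest to the highest of a gene. Colours give the ending of the probe set name; an ending _a_at marks probes shared by transcripts of 1 gene, and _s_at and _x_at mark probes that may bind transcripts of other genes. Srsf3, Hnrnpc and Hnrnpa2b1 have the longest lines, and the points of Snrpa1 and Snrpb all lie below -0.38.

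Promoters are shown for the gene with the lowest difference in each family that has an entry among the RefSeq promoter windows of GRCm38.p6, to show the sequence before the start of the genes with the lowest values. Of the 46 genes 41 matched by gene number, with 54 windows. The 150 bases before the annotated start are given 5′ to 3′ on the strand of the gene, at chr17:29032510-29032659 (+) for Srsf3, chr6:51469895-51470044 (-) for Hnrnpa2b1, which has 2 windows of which the first listed is given, chr4:124714711-124714860 (+) for Sf3a3, and chr1:133610281-133610430 (-) for Snrpe. Capitals mark the letters CCAAT or CCGGAAG on either strand, which on the reverse strand read ATTGG and CTTCCGG.
Srsf3: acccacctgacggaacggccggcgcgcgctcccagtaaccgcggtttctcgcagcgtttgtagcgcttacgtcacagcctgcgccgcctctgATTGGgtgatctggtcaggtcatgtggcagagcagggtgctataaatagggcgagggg
Hnrnpa2b1: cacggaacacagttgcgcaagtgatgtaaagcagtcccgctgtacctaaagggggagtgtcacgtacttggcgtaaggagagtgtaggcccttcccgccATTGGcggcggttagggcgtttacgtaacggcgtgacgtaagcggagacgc
Sf3a3: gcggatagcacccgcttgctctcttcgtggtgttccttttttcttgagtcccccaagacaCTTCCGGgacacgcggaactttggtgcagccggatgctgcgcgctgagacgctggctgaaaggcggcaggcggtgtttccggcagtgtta
Snrpe: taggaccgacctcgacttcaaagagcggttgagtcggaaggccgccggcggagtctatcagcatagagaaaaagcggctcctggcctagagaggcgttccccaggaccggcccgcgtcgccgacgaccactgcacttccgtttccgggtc

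Over these 150 bases on both strands, CCGGAAG, the core of sites for ETS transcription factors, was found in 14 of the 54 windows, or 25.9%, beside 5.52% of all 32851 windows. CCAAT, the core of the box bound by NF-Y, was found in 21, or 38.9%, beside 24.5%. CACGTG, the E-box bound by Myc, was found in 2, or 3.7%, beside 4.3%. By gene, CCGGAAG was found for 11 of 41, or 26.8%, beside 6.33% of 27025 genes. By their letters, none of the 3 motifs can overlap another on either strand. Windows of 1 gene can overlap each other, and a match shows only that the letters are there. The shares given beside are over all annotated windows or genes, whatever their signal on these arrays. Bright genes alone were not counted, so a link of the motifs to splicing genes in particular was not tested.

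Other genes of the splicing pathway were taken from 9 lists with 167 genes, of which 151 were measured. Of 148 tested without the sample labelled mutant 1, 2 fell, Esrp1 and Esrp2, and 1 rose, Dhx16, beside 1.34% and 3.29% of all tested genes. The median difference of the 151 was -0.12, against 0.05 over all genes tested, and 61 of them, or 40.4%, lay below both WT arrays in both mutants 2 and 3, beside 22.1%. Esrp1, an epithelial regulator of alternative exons, read 9.31 and 9.41 in WT, 9.35 in the sample labelled mutant 1, and 7.26 and 7.30 in mutants 2 and 3. Its paralogue Esrp2 read 7.13 and 7.36 in WT, 7.23, and then 6.15 and 6.29 (difference -1.02, SE 0.12, limma adjusted p = 0.042), a 2.03-fold lower signal. Dhx16, a helicase that acts before the first catalytic step, read 10.93 and 10.98 in WT, 10.88, and then 11.69 and 11.57 (difference 0.67, SE 0.08, limma adjusted p = 0.043), 1.60-fold higher.

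The LSM genes, whose proteins form a ring like that of the Sm proteins, around U6 RNA or in messenger RNA decay, had the lowest median of the 9 lists, -0.38. All 7 measured of 8 lay below both WT arrays in mutants 2 and 3, beside 22.1% of all tested genes, and 0 passed. Lsm6 read 10.84 on both WT arrays, 10.93 in the sample labelled mutant 1, and 10.10 and 10.49 in mutants 2 and 3 (difference -0.55, limma adjusted p = 0.117). Lsm4 read 11.49 and 11.55 in WT, 11.53, and then 11.32 and 11.30 (difference -0.21, limma adjusted p = 0.148). The list of factors that load Sm proteins onto RNA had a median of -0.13 over 14 genes, with 0 called. There Smn1, the survival of motor neuron gene, read 7.71 and 7.80 in WT, 7.81, and then 7.27 and 7.17 (difference -0.54, limma adjusted p = 0.053). Gemin5, which recognises the small nuclear RNA in the same complex, differed by -0.47 (limma, adjusted p = 0.073).

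The lists for U2AF and the branch site (median -0.06 over 10 genes), U1 and U11/U12 (-0.12 over 13), the U4/U6.U5 particle (-0.13 over 17), the exon junction complex (-0.09 over 8) and SR kinases with SR-related factors (-0.14 over 18) had 0 called genes. Phf5a, a small SF3b subunit outside the symbol rule, read 11.75 and 11.77 in WT, 11.76 in the sample labelled mutant 1, and 11.34 and 11.38 in mutants 2 and 3 (difference -0.39, limma adjusted p = 0.058). Prpf8, the scaffold of the catalytic centre, differed by -0.23 and Sart3, a U6 recycling factor, by -0.33 (limma, adjusted p = 0.124 and 0.094). Dhx15, which dismantles spliceosomes, differed by -0.21, the U11/U12 proteins Rnpc3 and Snrnp48 by -0.17 each, and the exon junction proteins Rbm8a and Alyref by -0.41 and -0.13. Clk3, a kinase of SR proteins, differed by 0.33 and the SR-related factor Tra2a by -0.23 (limma, adjusted p = 0.094 and 0.136). The list of the Prp19 complex and catalytic factors, with Dhx16 in it, had a median of -0.03 over 27 genes, and Isy1 in the same list differed by -0.46. The list of other regulators of alternative splicing had a median of -0.13 over 37 genes.

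**Figure D4:**
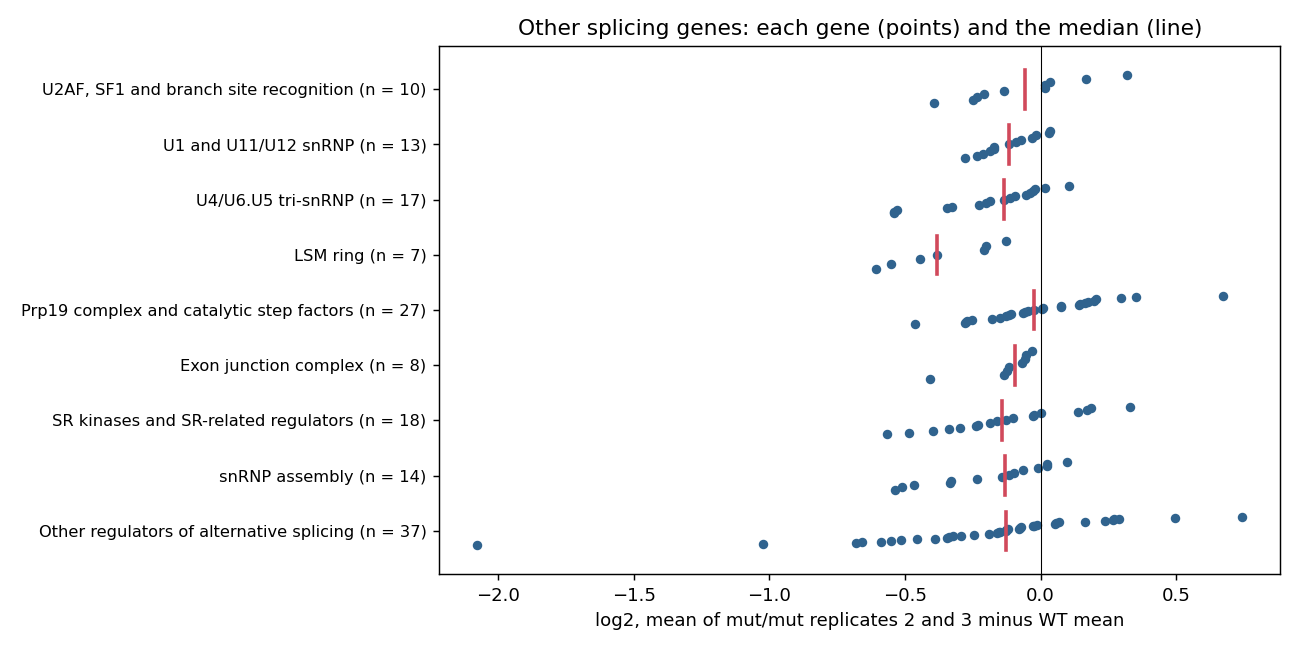
Each measured gene of the 9 lists of other splicing genes, as the log2 mean of Trip12 mut/mut replicates 2 and 3 minus the WT mean, with a red line at the median of a list. All 7 LSM genes lie below 0, Esrp1 and Esrp2 are the lowest points, and Dhx16 is the highest point of the Prp19 and catalytic list.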

How the data were processed

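RNA of 2 WT and 3 Trip12 mut/mut samples was measured on Affymetrix arrays. The authors deposited log2 values made with RMA, per the submitters' processing notes; its version and the chip definition are not given in the sources used here. Of 45101 probe sets 64 controls were left out. Of the rest, 34945 had 1 gene symbol, 932 several and 9160 none, and symbols were updated by gene number with the RefSeq table of GRCm38.p6. Members were matched on the platform's symbols. The 18193 genes were fitted in R 4.3.3 with lmFit and eBayes of limma 3.58.1, two-sided, with Benjamini-Hochberg adjustment over all genes and a threshold of 0.05. Dim probe sets were those with fewer than 2 of the arrays above the median of all probe sets, 5.52. With 5 arrays, their number sets how precise a value can be.

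The text names, in each family, up to 4 genes with the largest positive and 4 with the largest negative difference between mutant replicates 2 and 3 and WT, every member past the threshold, and up to 2 genes with the smallest p in each list of other splicing genes, with all that passed. Further genes were named after their values were seen. The members and lists were chosen with earlier results of these data known. Numbers were not taken as pairs, since the labels do not say that they pair the samples. Deviations of same-numbered replicates from their group means had r = -0.05 and -0.08 over genes. This cannot decide on pairing. The deviations of the 2 WT arrays mirror each other, and those of the mutants also hold the gap between mutant 1 and the others. Alternatives were quantile normalisation, the dim filter, array weights, a robust variance trend, other probe set rules, a replicate block and each array left out. The procedure was tested on simulated data. Figures were drawn with matplotlib 3.10.9.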

Additional observations from a re-analysis of the deposited data

How the results depend on the processing

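Over all 5 arrays, no member and no gene was called with quantile normalisation, with dim probe sets removed, with a variance trend, with array weights, with other probe set rules or with any array left out. With the array labelled Trip12 mut/mut replicate 1 left out and dim probe sets removed together, 539 genes and 1 member were called; with any 1 array left out and nothing else changed, 0 genes and 0 members were. The members' median was -0.14 to -0.03 with arrays left out. With the replicate block it was -0.03, with 0 calls. Replicate number 3 occurs in mutant 3 alone, so the block in effect leaves that array out. Its differences are those without mutant 3, and it is not a separate check. The labels do not say that the numbers pair the samples. In the comparison without that array, 1 member was called, against 0 with dim probe sets kept, 0 with each probe set tested on its own (chosen after seeing the data), and 2, Snrpa1 and Srsf3, with probe sets averaged. Over all genes the 539 calls became 1000 with quantile normalisation, 1461 with probe sets averaged and 0 with dim probe sets kept. A replicate block was not run there because only replicate number 2 is shared. With 1 more array left out, 0 to 19 were called. The 0 came without WT replicate 1 or WT replicate 2. Without replicate 2 there were 13 of 45, 12 of them lower, where 23.3% of genes were called, and without replicate 3 there were 19, 12 of them lower and 7 higher, where 42.6% were. The lone array of a group is there assumed to vary like the other group. The median was -0.20 to -0.05 with 1 more array left out, and -0.28 with the probe set of largest SD. Of the 5-array differences of 23 named members, 283 of 299 values kept their direction and side of the threshold, and 15 turned in sign. Hnrnpa2b1 passed in 1 setting only, the combined one. In the other settings no gene was called, so no member could change side there. A variance trend or the removal of dim probe sets also left the differences themselves unchanged. The count of 283 is therefore no measure of robustness. The sign turned with averaged probe sets in Srsf6 (-0.20), Hnrnpc (-0.082), Hnrnph1 (-0.0069), Hnrnpr (0.012) and Sf3b1 (-0.0021), with the probe set of largest SD in Srsf6 (-0.28), Hnrnpc (-0.39) and Hnrnph1 (-0.045), and with array weights in Srsf6 (-0.00027). With arrays left out the differences ranged from -0.031 to 0.087 in Srsf11, -0.040 to 0.081 in Srsf6, -0.022 to 0.12 in Hnrnpc, -0.012 to 0.10 in Hnrnpul1, -0.017 to 0.056 in Hnrnph1 and -0.028 to 0.17 in Sf3b1, and the negative ends came without replicate 2. The causes were not tested.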
